A study of Mus musculus with 37 samples.

Results

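A set of 10 genes of BMP, activin and TGF-beta signalling was followed across all groups of the study. They are the ligands Bmp2, Bmp3, Bmp4, Bmp7, Inhba, Inhbb and Tgfb2, the inhibitor Fst, and the target genes Id1 and Id2. They were chosen by symbol, and all 10 of the 10 were found among the 52636 genes of the deposited tables and passed the filter on low counts that left 18426 genes to test. RNA was sequenced from mature luminal cells, the epithelial cells sorted by flow cytometry from mouse mammary glands. The mice carried WT Esr1, which encodes estrogen receptor alpha, or the D542G or Y541S mutation of it. All groups shared ovariectomy after the animals were raised to 8 weeks, and pellets were then worn for 8 days. These held placebo, estradiol (E2), progesterone (P4) or both hormones (E2+P4), which gives 12 groups of 3 libraries each, apart from WT P4 with 4. The labels do not give zygosity, the cells in which the mutations are present, or whether a library pooled animals, and the p-values therefore reflect how far these samples spread, which may be technical.

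BMPs, activins and TGF-betas are secreted dimers that bind pairs of type I and type II serine/threonine kinase receptors. BMPs act mainly through Smad1, Smad5 and Smad9, whereas activins and TGF-betas act mainly through Smad2 and Smad3, and all share Smad4. Extracellular binding proteins such as follistatin hold ligands away from their receptors, and the Id genes, which encode helix-loop-helix proteins that block DNA binding by partner factors, are direct BMP targets in many cells. In the mammary gland TGF-beta restrains ductal growth, and Id2 is needed for alveolar development in pregnancy.

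Deposited counts summed to 25.69 to 52.24 M (1e6 counts) per library. Levels below are CPM (counts per 1e6 counts of the library) over the tested genes after TMM scaling, and differences are log2 fold changes ± SE from edgeR's quasi-likelihood test. A gene was called where the p-value, adjusted by Benjamini-Hochberg across the tested genes of a comparison, fell below 0.05. Of 9 basal and myoepithelial markers, whose summed level was 57.4 to 85.9 CPM in the other WT placebo and WT P4 libraries, WT placebo 2 had 912 CPM and WT P4 2 had 821 CPM. The same pair had 362 and 253 CPM of 10 G2 and M phase genes, against 11.8 to 16.5 CPM in the others of their groups. Over all libraries the sum of these genes ran from 11.8 to 794 CPM. Y541S placebo 5 had 1570 CPM of 8 hormone-sensing luminal markers against 4710 and 5460 CPM in the other Y541S placebo libraries, and 5030 CPM of 8 luminal progenitor and alveolar markers against 3170 and 2310 CPM. All 8 hormone-sensing markers were detected in every group. Of other cell types, summed fibroblast markers ran from 37.7 to 4120 CPM over all libraries, endothelial markers from 34.3 to 481 CPM, adipocyte markers from 5.93 to 219 CPM and leukocyte markers from 1.57 to 125 CPM. Y541S placebo 5 had 445 CPM of fibroblast markers against 4040 and 4120 CPM in the rest of its group, sums in which Dcn made up 205, 3990 and 4050 CPM. The mean log2 CPM of the 8 fibroblast markers was 4.06 in that library against 2.62 and 2.87, its endothelial sum was 147 CPM against 34.3 and 82.8 CPM, and its leukocyte sum 46.9 CPM against 6.69 and 13.7 CPM. Itgam was at 0 in every library, with 99.9% of its span overlapped by another gene. Beside results that these 3 libraries changed, the value without them is given. In RNA of sorted cells in bulk, fewer cells of a type and less RNA per cell cannot be told apart.

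Bmp3, Inhbb, Tgfb2 and Id2 held most of the calls. In WT cells E2 changed 3 of the 10 genes (Bmp3 and Tgfb2 higher, Inhbb lower), where 31.5% of all tested genes were called. P4 changed 1 (Bmp3, higher) against 1.43% of all genes, and E2+P4 changed 5 (Bmp3 and Tgfb2 higher, Inhba, Inhbb and Id2 lower) against 23.4%. In D542G cells E2 changed 2 (Inhbb and Id2 lower) against 15.7% of all genes. P4 changed 3 (Bmp3 and Tgfb2 higher, Inhbb lower) against 18.4%, and E2+P4 changed 4 (Bmp3 and Tgfb2 higher, Inhba and Inhbb lower) against 25.4%. In Y541S cells E2 changed 0 of 10 by edgeR and 0 by DESeq2, with 1 gene at an unadjusted p under 0.05, while 4.65% of all genes were called. P4 changed 2 (Inhba and Inhbb lower) against 11.3%, and E2+P4 changed 2 (Bmp3 higher, Inhbb lower) against 18.5%. Without added hormone, D542G cells differed from WT cells in 2 of the 10 genes against 2.02% of all genes, and Y541S cells in 4 against 13.4%. The median log2 fold change of the 10 genes was -0.60 under E2 in WT cells and -1.77 under E2+P4, beside 0.03 and 0.01 for all tested genes. Without WT placebo 2 and WT P4 2 these medians turned direction, to 1.10 under E2 and 0.19 under E2+P4. In the D542G E2+P4 comparison, where Inhba had no count in the hormone group, the median was -0.71 both as fitted and with Inhba set at its bound, beside 0.06 for all genes.

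**Figure D1:**
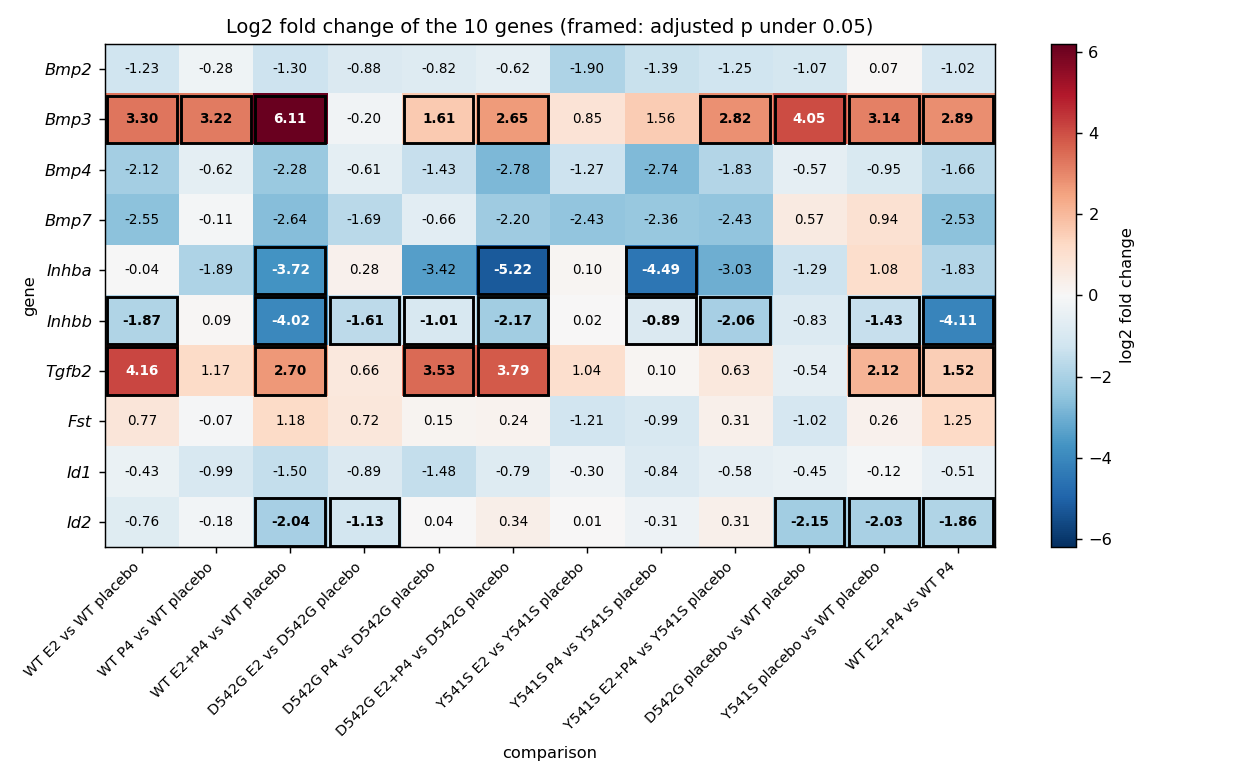
Log2 fold change of each of the 10 genes (rows) in 12 comparisons (columns), with colour for direction and size and a frame where the adjusted p was under 0.05. Frames gather in the rows of Bmp3, Inhbb, Tgfb2 and Id2, and by edgeR no column frames Bmp2, Bmp4, Bmp7, Fst or Id1.

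Bmp3 (ENSMUSG00000029335, chromosome 5, 98854415 to 98884396, plus strand, GRCm38) encodes a BMP that differs from most of the family in opposing rather than activating BMP signalling in several settings. In WT placebo libraries it was at 4.75, 1.61 and 3.90 CPM, and in WT E2+P4 libraries at 226, 198 and 284 CPM. The groups lay far apart, and the fitted rise was 69.1-fold, a log2 fold change of 6.11 ± 0.70 (adjusted p = 1.88e-07). Each hormone alone raised it too. WT E2 libraries had 76.6, 6.59 and 17.9 CPM (3.30 ± 0.62, adjusted p = 0.000152), a group in which the first library was more than 4 times as high as the others and none overlapped placebo. Over all alternatives the E2 rise ranged from 1.85, without WT E2 1, to 3.79, with adjusted p up to 0.0496. WT P4 libraries had 36.6, 47.3, 24.7 and 19.1 CPM (3.22 ± 0.60, adjusted p = 0.00608), all above placebo. That call was lost when WT placebo 2 and WT P4 2 were left out, at 2.81 with an adjusted p of 0.0546.

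Mutant cells carried more Bmp3 without any hormone. D542G placebo libraries were at 74.7, 44.5 and 50.9 CPM (4.05 ± 0.64 above WT placebo, adjusted p = 0.000471) and Y541S placebo libraries at 28.2, 25.5 and 37.0 CPM (3.14 ± 0.62, adjusted p = 0.00072). Both groups stood clear of WT placebo. E2 alone left D542G libraries at 82.0, 43.2 and 22.5 CPM, astride their placebo (-0.20 ± 0.55, adjusted p = 0.849), and Y541S libraries at 34.7, 68.5 and 60.8 CPM (0.85 ± 0.56, adjusted p = 0.461). P4 libraries held 303, 84.2 and 132 CPM in D542G cells, a rise of 1.61 ± 0.57 (adjusted p = 0.0461) that became 0.93 (adjusted p = 0.288) without D542G P4 1, and the call was lost under 6 of 11 alternatives. In Y541S cells P4 gave 81.2, 106 and 78.9 CPM, above all placebo libraries but not called (1.56 ± 0.57, adjusted p = 0.0749). E2+P4 gave the highest levels in each genotype: 424, 332 and 314 CPM in D542G cells (2.65 ± 0.59, adjusted p = 0.00123) and 233, 181 and 226 CPM in Y541S cells (2.82 ± 0.59, adjusted p = 0.00121). By group mean, Bmp3 ran from 3.42 ± 1.63 CPM in WT placebo (SD, n = 3) to 357 ± 58.7 CPM in D542G E2+P4 (SD, n = 3). In that order the libraries of neighbouring groups failed to overlap at 3 places: between WT placebo and Y541S placebo, between D542G placebo and Y541S P4, and between WT E2+P4 and D542G E2+P4.

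**Figure D2:**
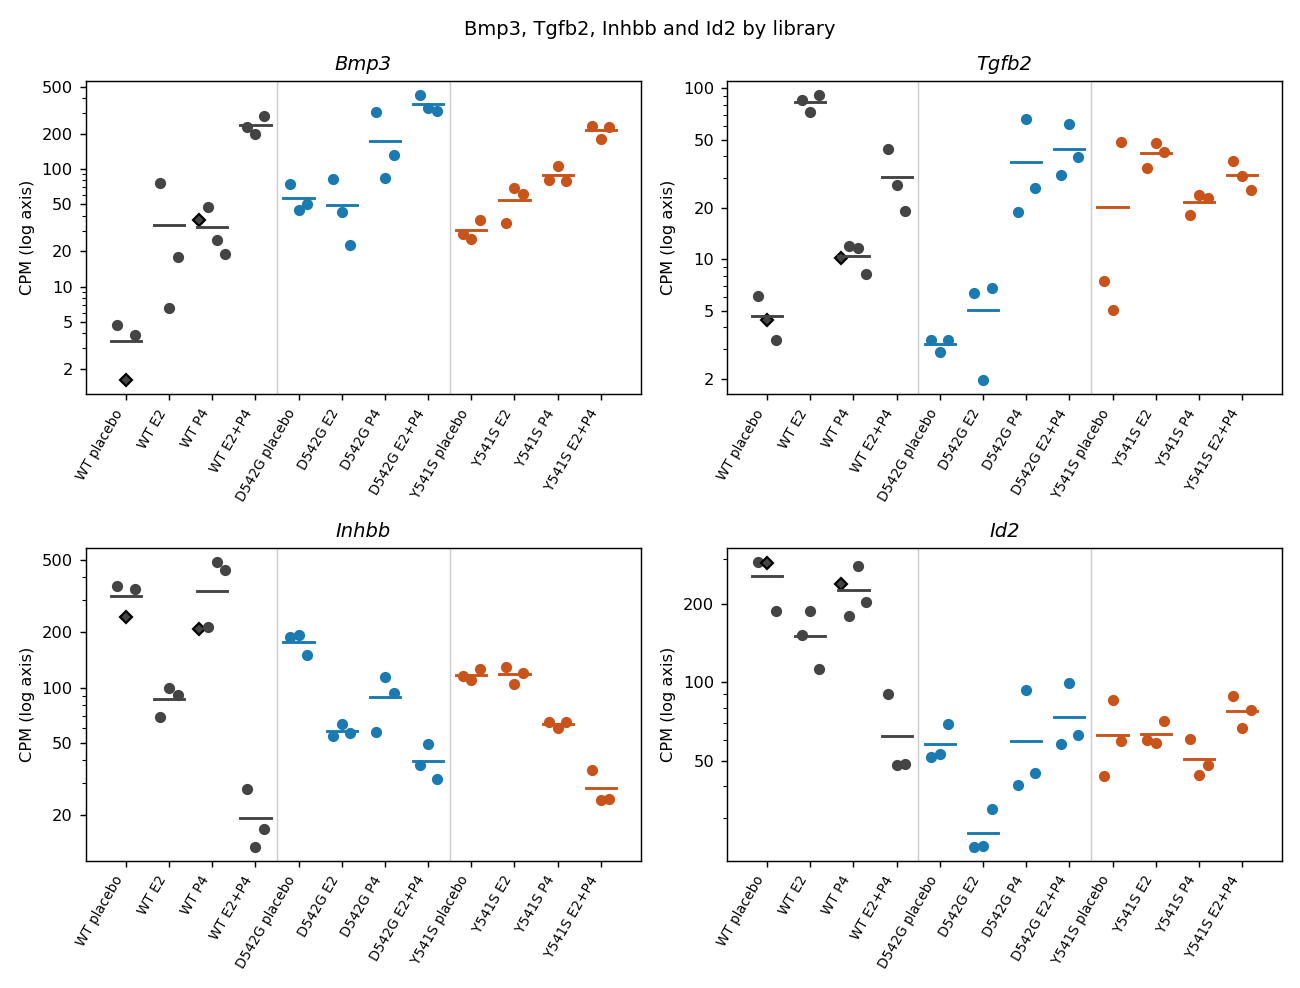
CPM (log axis) of Bmp3, Tgfb2, Inhbb and Id2 in each of 37 libraries (points) by group, with the group mean as a line; black-edged diamonds are WT placebo 2 and WT P4 2. Bmp3 is lowest in WT placebo (1.61 to 4.75 CPM), Tgfb2 is highest in WT E2 (72.9 to 90.9 CPM), and Inhbb is lowest in WT E2+P4 (13.5 to 27.9 CPM).

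The region upstream of the start site is shown for Tgfb2 and Inhbb, whose calls ran in opposite directions under E2 and E2+P4 in WT cells. Both come from RefSeq's GRCm38.p6 table, which held a window for 5 of the 10 genes, and give the 250 bases before the annotated start, 5′ to 3′ on the gene's strand. In the Tgfb2 window (chr1:186705990-186706239, minus strand, 53.6% GC) capitals mark CACGTG, which is an E-box and starts at position -51, and TATAAA, the core of many promoters, at -31.
Tgfb2: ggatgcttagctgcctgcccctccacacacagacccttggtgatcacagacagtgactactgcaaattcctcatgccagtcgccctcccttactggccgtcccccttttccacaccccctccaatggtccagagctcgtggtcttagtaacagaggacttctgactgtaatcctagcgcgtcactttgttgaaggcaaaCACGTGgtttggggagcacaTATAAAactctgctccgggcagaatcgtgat
Inhbb: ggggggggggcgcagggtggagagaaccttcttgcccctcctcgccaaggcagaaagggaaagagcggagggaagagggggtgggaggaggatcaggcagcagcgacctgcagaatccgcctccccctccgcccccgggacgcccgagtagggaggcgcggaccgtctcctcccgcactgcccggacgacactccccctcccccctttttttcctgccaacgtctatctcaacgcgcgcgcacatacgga
The Inhbb window (chr1:119422249-119422498, minus strand, 68.0% GC) held none of the 8 motifs searched on both strands and is in lower case throughout. The median window of the table had 52.4% GC. The motifs were the palindromic estrogen response element (in 0.0639% of all 32851 windows of this length), the single nuclear receptor site AGGTCA (14.0%), which can overlap the former, the progesterone and glucocorticoid response element (0.0304%), the SMAD box GTCTAGAC (0.167%), the GC-rich SMAD element GGCGCC (9.59%), the cAMP response element TGACGTCA (1.55%), TATAAA (12.4%) and CACGTG (6.02%). A match describes letters and not a bound site, and a window without one says nothing of a factor acting elsewhere.

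Tgfb2 (ENSMUSG00000039239, chromosome 1, 186622792 to 186705989, minus strand) encodes a TGF-beta ligand. In WT placebo libraries it was at 6.11, 4.42 and 3.37 CPM and in WT E2 libraries at 85.7, 72.9 and 90.9 CPM, a rise of 17.9-fold (4.16 ± 0.61, adjusted p = 6.78e-06). No other group reached the WT E2 libraries. WT P4 libraries held 10.1, 12, 11.6 and 8.24 CPM, all above placebo without a call (1.17 ± 0.53, adjusted p = 0.304). Both hormones together gave 43.9, 27.1 and 19.2 CPM, a called rise over placebo (2.70 ± 0.57, adjusted p = 0.000852) that lay below every WT E2 library.

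In D542G cells Tgfb2 rose with P4 and with E2+P4. Placebo libraries were at 3.36, 2.86 and 3.35 CPM and E2 libraries at 6.37, 1.97 and 6.76 CPM, which overlapped (0.66 ± 0.55, adjusted p = 0.451). P4 libraries were at 19.0, 65.6 and 26.0 CPM (3.53 ± 0.60, adjusted p = 0.000187) and E2+P4 libraries at 31.1, 61.9 and 39.6 CPM (3.79 ± 0.60, adjusted p = 2.89e-05), all above placebo. The E2 rise was smaller in D542G than in WT cells by 3.5 ± 0.79 (adjusted p = 0.00451). The P4 rise differed by 2.35 ± 0.75 without reaching the threshold (adjusted p = 0.0778), and was called by DESeq2 at an adjusted p of 0.0204. EdgeR called it with the replicate number as a block (2.65, adjusted p = 0.0451) and when only the groups compared entered the fit (2.37, adjusted p = 0.0299). It also did so without the libraries with later sample identifiers (2.29, adjusted p = 0.0414). Without WT placebo 2 and WT P4 2 the difference was not called (2.37, adjusted p = 0.172).

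In Y541S cells 1 library decided what was called for Tgfb2. Placebo libraries 2, 3 and 5 were at 7.45, 5.03 and 48.3 CPM, and the last of these lay above all 9 hormone libraries, while the other 2 lay below all of them. E2 libraries held 34.3, 48.1 and 42.5 CPM, P4 libraries 18.2, 23.7 and 22.8 CPM, and E2+P4 libraries 37.6, 30.7 and 25.3 CPM, none of them a called change. Without Y541S placebo 5 all of them were: 2.74 for E2 (adjusted p = 0.000325), 1.79 for P4 (adjusted p = 0.00987) and 2.32 for E2+P4 (adjusted p = 0.000736). The called excess of Y541S placebo over WT placebo, 2.12 ± 0.56 (adjusted p = 0.0109), fell to 0.43 (adjusted p = 0.64) without that library and was also lost without WT placebo 3 (1.94, adjusted p = 0.0679). The called difference in E2 response from WT cells, -3.12 ± 0.78 (adjusted p = 0.0119), moved to -1.43 (adjusted p = 0.165).

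Markers of luminal progenitor and alveolar cells were high together with Tgfb2 in some groups and not in others. All 8 were detected in WT E2 libraries, where their summed level was 6660 to 15500 CPM, against 1670 to 2070 CPM for the 7 detected in WT placebo, where the milk protein gene Wap was at 0. The sum was 2700 to 4240 CPM in WT E2+P4. It was 3250 to 7840 CPM in D542G P4, 2770 to 4390 CPM in D542G E2+P4 and 3910 to 5770 CPM in Y541S E2. In D542G E2 it stayed at 1380 to 2030 CPM. In Y541S P4 and Y541S E2+P4 it was 1780 to 1850 and 1910 to 2340 CPM, at or below the lowest Y541S placebo library (2310 CPM) apart from the top of the second range. Mfge8 had the highest mean of the 8 markers over all libraries, at 2310 CPM, and weighs most in the sum. The mean log2 CPM of the 8 was 5.61, 4.95 and 5.14 in Y541S E2+P4. It was 4.19, 3.90 and 6.80 in Y541S placebo 2, 3 and 5. The part of these cells in the Tgfb2 values was not tested.

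Inhbb (ENSMUSG00000037035, chromosome 1, 119415465 to 119422248, minus strand) encodes the beta-B subunit of activin B and inhibin B. It was the gene of the 10 with the widest set of falls. WT placebo libraries were at 359, 244 and 345 CPM and WT E2 libraries at 68.7, 99.5 and 91.3 CPM, with no overlap and a 3.65-fold fall (-1.87 ± 0.29, adjusted p = 1.61e-05). P4 alone left it at 209, 213, 486 and 438 CPM, on both sides of placebo (0.09 ± 0.26, adjusted p = 0.933). WT P4 2 and WT P4 3 lay below every WT placebo library. WT P4 4 and WT P4 5, which carry later sample identifiers than all WT placebo libraries, lay above every one. The small P4 difference is thus a mean over a group split by identifier, and the part of that split was not tested. E2+P4 took Inhbb to 27.9, 13.5 and 16.9 CPM, 16.2-fold below placebo and the lowest group mean of the 12 (-4.02 ± 0.32, adjusted p = 3.82e-10).

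D542G placebo libraries had 190, 193 and 150 CPM of Inhbb, all below WT placebo but not called (-0.83 ± 0.28, adjusted p = 0.165). Y541S placebo libraries had 115, 110 and 126 CPM, a called difference of -1.43 ± 0.29 (adjusted p = 0.000951). In D542G cells E2 gave 54.5, 63.4 and 56.4 CPM (-1.61 ± 0.29, adjusted p = 0.000239), whereas in Y541S cells E2 gave 130, 105 and 120 CPM, which overlapped placebo (0.02 ± 0.28, adjusted p = 0.992). The 95% interval of that last difference ran from -0.56 to 0.59. P4 libraries fell below placebo in both mutants, at 57.0, 114 and 93.9 CPM in D542G cells (-1.01 ± 0.29, adjusted p = 0.014) and at 65, 60 and 65.2 CPM in Y541S cells (-0.89 ± 0.29, adjusted p = 0.042). Neither of these calls was firm: the first was lost under 3 of 11 alternatives, among them without D542G placebo 2 (adjusted p = 0.0528) and without D542G P4 1 (adjusted p = 0.0832), and the second under 8 of 12, with adjusted p up to 0.128 and with each of the 6 libraries left out in turn. E2+P4 gave 37.9, 49.1 and 31.7 CPM in D542G cells (-2.17 ± 0.30, adjusted p = 3.9e-06) and 35.6, 24.3 and 24.6 CPM in Y541S cells (-2.06 ± 0.29, adjusted p = 2.04e-05), clear of placebo in both. The sum of 8 hormone-sensing luminal markers was 4840 to 7490 CPM in WT placebo, 812 to 1620 CPM in WT E2 and 2040 to 4970 CPM in WT E2+P4, and 5080 to 6080 CPM in D542G E2 against 6440 to 7330 CPM in D542G placebo. It was 1860 to 2900 CPM in D542G P4 and 1240 to 2250 CPM in D542G E2+P4. In Y541S cells it was 1570 to 5460 CPM in placebo, 1860 to 2610 CPM in E2, 1350 to 1770 CPM in P4 and 1330 to 1570 CPM in E2+P4. Every WT E2+P4 library had less Inhbb and a higher sum than every WT E2 library. Of the 8 markers E2 in WT cells raised 1 and lowered 7, where 31.5% of all genes were called. The sum is not a count of cells, since fewer such cells and less marker RNA per cell cannot be told apart. Its part in the Inhbb values was not tested.

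Inhba (ENSMUSG00000041324, chromosome 13, 16011851 to 16031621, plus strand) encodes the beta-A subunit of activin A. It was near the floor: 40 counts at most in a library and 261 counts over all 37. Of its span 90.1% is overlapped by B230303A05Rik and the antisense gene Gm48444, and how the authors counted reads of overlapping genes is not given in the sources used here, so its values are uncertain. Counts summed over the group were 32 in WT placebo, 10 in WT P4 and 2 in WT E2+P4. After scaling to depth the last was 16-fold lower than placebo, with a 95% counting interval of 4.08 to 138 that covers counting error only (edgeR adjusted p = 0.035). WT placebo 2 held most of the placebo level (0.587 CPM against 0.131 and 0.112), and without it the adjusted p was 0.188. The call was also lost without any 1 of the WT E2+P4 libraries (adjusted p = 0.0668 to 0.127). In D542G cells 15 counts in placebo faced 1 in P4 and 0 in E2+P4, at least 4.96-fold lower when 0 is set to a floor of 3 counts over the group (edgeR adjusted p = 0.0135). In Y541S cells 54 counts in placebo faced 3 in P4, a ratio of 20.7 (interval 6.73 to 104, edgeR adjusted p = 0.0206), and 9 in E2+P4, a ratio of 7.13 (3.49 to 16.4, adjusted p = 0.0656). Y541S placebo 5 carried 1.44 CPM against 0.147 and 0.203 in the other placebo libraries, and without it the P4 call was lost (adjusted p = 0.16), as it was without Y541S P4 2 (0.0809) or Y541S P4 3 (0.0987).

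Bmp2, Bmp4 and Bmp7 encode canonical BMP ligands, and edgeR called none of them in any of the 19 comparisons. DESeq2 called falls of Bmp7 under E2 (-2.55, adjusted p = 0.0229) and E2+P4 (-2.61, adjusted p = 0.0239) in WT cells, under E2+P4 in Y541S cells (-2.47, adjusted p = 0.0395) and with E2+P4 against P4 in WT cells (-2.49, adjusted p = 0.0218). It also called a fall of Bmp4 under E2+P4 in D542G cells (-2.79, adjusted p = 0.0393). With WT placebo 2 and WT P4 2 left out, edgeR gave 0.15 and 0.06, neither called, for Bmp7 under E2 and E2+P4 in WT cells. For E2+P4 against P4 in WT cells it then gave 0.37 (adjusted p = 0.711). Bmp2 (ENSMUSG00000027358, chromosome 2, 133552159 to 133562885, plus strand) had group means of 1.34 to 5.47 CPM, and Bmp4 (ENSMUSG00000021835, chromosome 14, 46383520 to 46390669, minus strand, 25.9% of its span overlapped by Gm15217 and the antisense Gm15222) had 0.533 to 6.84 CPM. For each of Bmp2, Bmp4 and Bmp7 the 2 highest of 37 libraries were WT placebo 2 and WT P4 2, those with the highest basal sums. Their mitotic sums were high within their groups, while every Y541S P4 library had more (427 to 452 CPM). Bmp2 stood at 13.8 and 12.4 CPM there against 0.589 to 1.86 CPM in the other 5 libraries of the 2 groups, and Bmp4 at 18.3 and 14.7 CPM against 0.162 to 2.11 CPM. The edgeR difference of Bmp2 between Y541S and WT placebo was 0.07 (adjusted p = 0.978), and 2.57 with that pair of libraries left out (adjusted p = 0.0422). With only WT placebo 2 left out it was not called.

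Bmp7 (ENSMUSG00000008999, chromosome 2, 172868012 to 172940321, minus strand) was at 27.8 CPM in WT placebo 2 and 34.2 CPM in WT P4 2, and at 2.17 and 1.01 CPM in the other WT placebo libraries. D542G placebo libraries held 14.5, 14.5 and 17.1 CPM and Y541S placebo libraries 19.1, 24.7 and 15.8 CPM. All 6 mutant values lay between WT placebo 2 and the rest of its group, and neither difference from WT placebo was called (0.57 ± 1.01, adjusted p = 0.918, and 0.94 ± 1.01, adjusted p = 0.608). With WT placebo 2 and WT P4 2 left out, both were: 3.27 for D542G (adjusted p = 0.0175) and 3.64 for Y541S (adjusted p = 0.00124). WT P4 2 is in neither comparison and enters only through the shared fit. With only WT placebo 2 left out, the Y541S difference was called (3.64, adjusted p = 0.0374) and the D542G difference was not. Under hormone Bmp7 in Y541S cells was at 6.19, 3.79 and 1.10 CPM with E2, 3.13, 2.57 and 5.94 CPM with P4, and 3.34, 3.65 and 4.07 CPM with both. Each of these libraries lay below all Y541S placebo libraries, yet the adjusted p was 0.221, 0.163 and 0.113. When only the groups compared entered the fit, the P4 and E2+P4 falls were called, at -2.39 (adjusted p = 0.0197) and -2.46 (adjusted p = 0.00428), and so were those under E2 (-1.69, adjusted p = 0.00704) and E2+P4 (-2.19, adjusted p = 0.00122) in D542G cells.

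**Figure D3:**
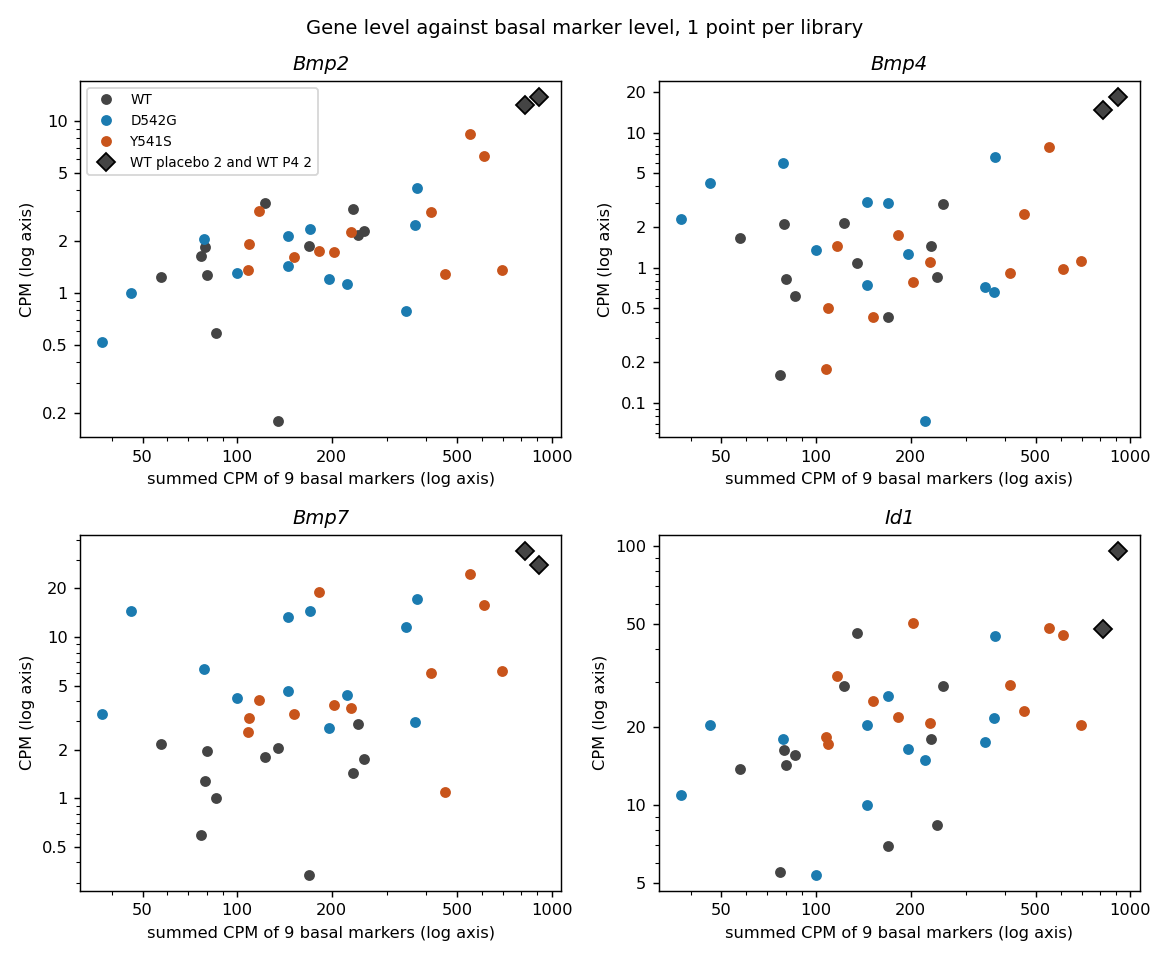
CPM of Bmp2, Bmp4, Bmp7 and Id1 (vertical, log axis) against the summed CPM of 9 basal markers (horizontal, log axis), 1 point for each of 37 libraries, coloured by genotype. WT placebo 2 and WT P4 2 (black-edged diamonds, 912 and 821 CPM of basal markers) hold the highest values of Bmp2, Bmp4 and Bmp7.

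Fst (ENSMUSG00000021765, chromosome 13, 114452290 to 114458951, minus strand, 4.3% overlapped by the antisense Gm47040) encodes follistatin, which binds activins and some BMPs. No comparison called it by edgeR. WT placebo libraries were at 0.183, 6.36 and 0.505 CPM and WT E2+P4 libraries at 5.09, 5.76 and 5.14 CPM. The placebo library at 6.36 CPM, WT placebo 2, was the only one of its group above any E2+P4 library, and the difference of 1.18 ± 1.18 was not called (adjusted p = 0.519). With WT placebo 2 and WT P4 2 left out it was 3.95 (adjusted p = 0.0496). With only WT placebo 2 left out the difference was not called. Its highest library was WT E2 1, at 9.78 CPM, beside 1.12 and 1.08 CPM in the other WT E2 libraries, and WT E2 1 was also the WT E2 library with most Bmp3. In mutant groups the means ran from 1.16 to 3.47 CPM, and neighbouring groups overlapped throughout the order.

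Id1 and Id2 are read as targets of BMP signalling, and they differed in pattern. Id1 (ENSMUSG00000042745, chromosome 2, 152736251 to 152737410, plus strand) was called in no comparison by edgeR, with group means of 11 to 41.7 CPM and neighbouring groups that overlapped throughout. Its highest library was WT placebo 2, at 95.9 CPM against 13.8 and 15.6 CPM in the rest of the group. WT E2+P4 libraries held 6.96, 28.9 and 8.41 CPM, a difference of -1.50 ± 0.68 from placebo (adjusted p = 0.114). Single libraries decided it: it was -2.44 and called without WT E2+P4 2 (adjusted p = 0.0279), and 0.01 without WT placebo 2 and WT P4 2 (adjusted p = 1).

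Id2 (ENSMUSG00000020644, chromosome 12, 25093799 to 25097140, minus strand) was at 291, 288 and 189 CPM in WT placebo. D542G placebo libraries had 51.5, 52.9 and 69.1 CPM, a fall of 4.43-fold from WT (-2.15 ± 0.31, adjusted p = 0.00019), and Y541S placebo libraries 43.6, 85.3 and 59.4 CPM, 4.08-fold lower (-2.03 ± 0.31, adjusted p = 3.23e-05). No mutant placebo library overlapped WT placebo, and both calls held under all 12 and 13 alternatives. In WT cells E2 gave 152, 189 and 113 CPM, just short of a call (-0.76 ± 0.30, adjusted p = 0.0513), with 1 library at the level of the lowest placebo library. DESeq2 called it at an adjusted p of 0.0333. P4 left Id2 at 240, 180, 282 and 204 CPM (-0.18 ± 0.28, adjusted p = 0.845), and E2+P4 lowered it to 90.3, 48.0 and 48.5 CPM (-2.04 ± 0.31, adjusted p = 1.24e-05), the range of the mutant groups. In D542G cells E2 lowered it further, to 23.3, 23.4 and 32.4 CPM (-1.13 ± 0.30, adjusted p = 0.00963), and this was the lowest group of all 12. Under P4 and E2+P4 D542G libraries were at 40.3, 93.3 and 44.6 CPM and at 57.8, 99.4 and 62.8 CPM, which overlapped placebo. No hormone changed Id2 beyond the threshold in Y541S cells, where all 12 libraries lay between 43.6 and 88.7 CPM. Nor did Id2 follow Id1: D542G placebo libraries had 20.5 to 44.9 CPM of Id1 against 13.8 to 95.9 CPM in WT placebo (-0.45 ± 0.67, adjusted p = 0.895). Without WT placebo 2 and WT P4 2 this Id1 difference turned direction, to 1.06, and was still not called (adjusted p = 0.559).

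**Figure D4:**
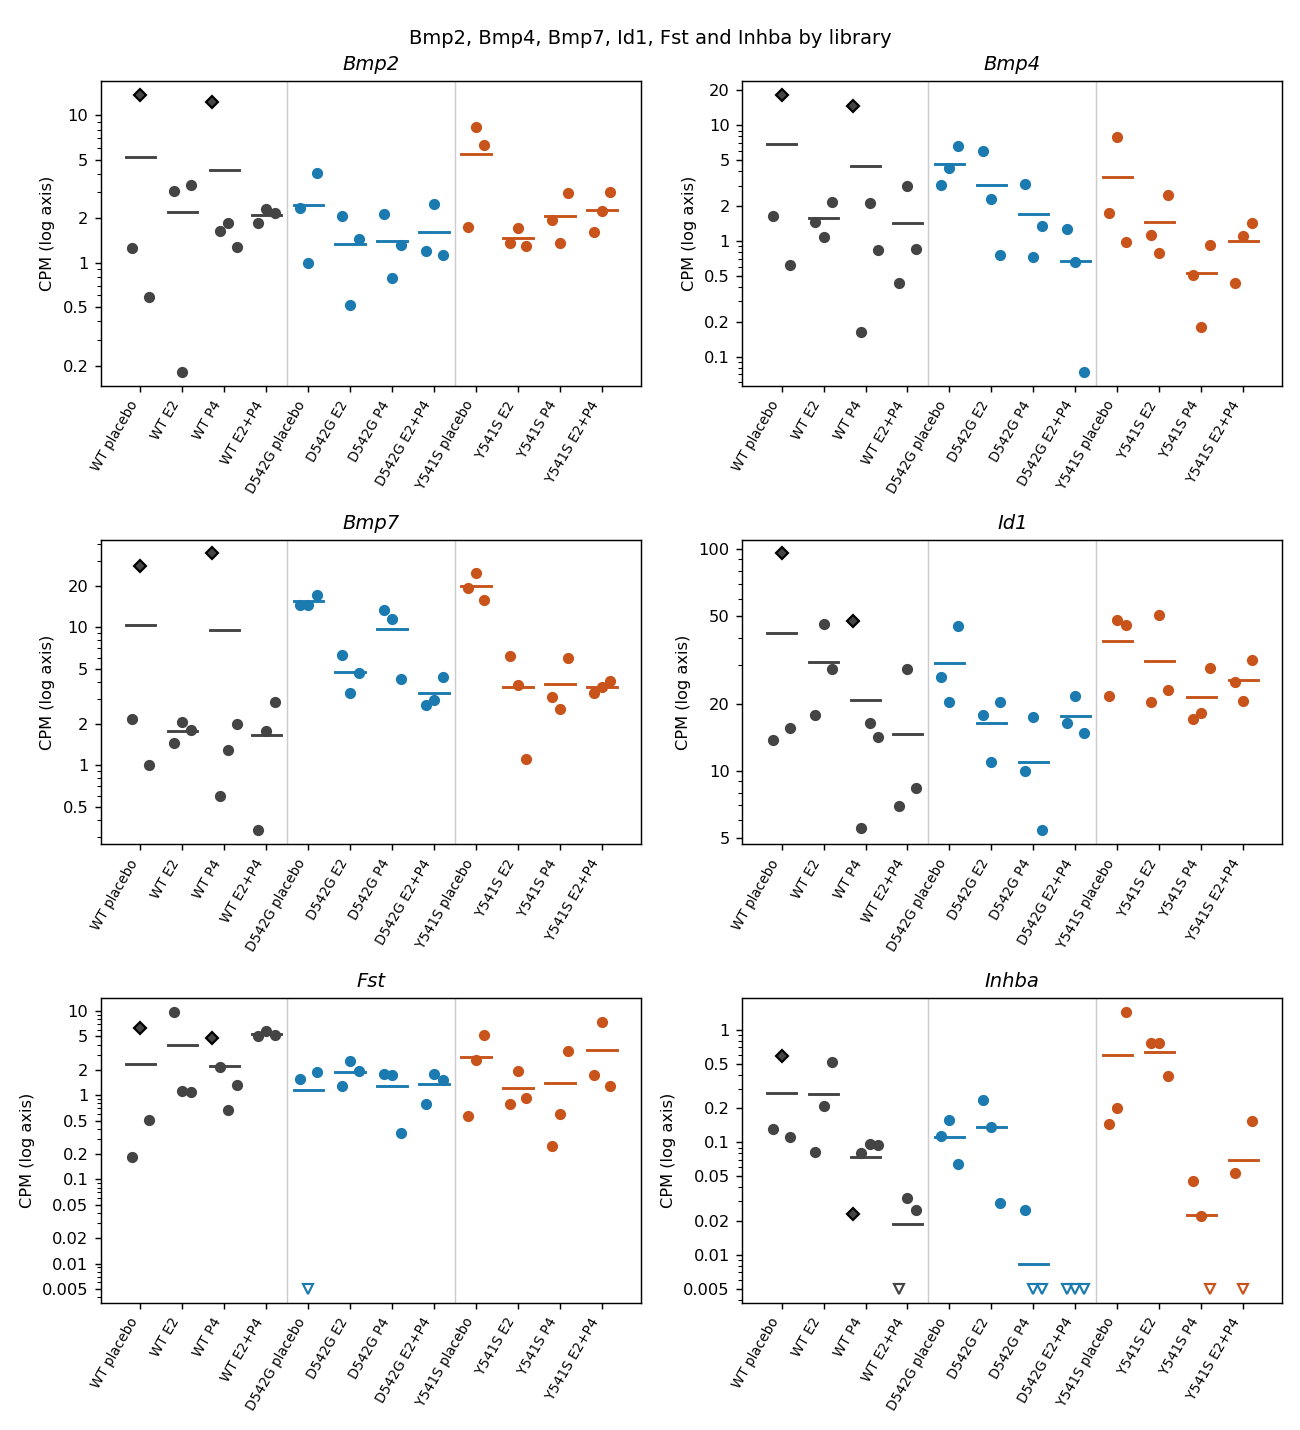
CPM (log axis) of Bmp2, Bmp4, Bmp7, Id1, Fst and Inhba in each of 37 libraries by group, with the group mean as a line; open triangles at 0.005 stand for 0 counts and black-edged diamonds for WT placebo 2 and WT P4 2. The diamonds lie above the other WT placebo and WT P4 libraries for Bmp2, Bmp4 and Bmp7, and Inhba has 0 counts in all 3 D542G E2+P4 libraries.

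Whether responses differed between genotypes was tested as the mutant's hormone effect minus that of WT cells. The WT libraries are common to both mutants' tests, so these are not independent of each other. For E2, D542G cells differed in 2 of the 10 genes, where 9.23% of all genes were called: Bmp3, by -3.51 ± 0.82 (adjusted p = 0.0057), and Tgfb2, given above. The Bmp3 difference was -2.05 without WT E2 1 (adjusted p = 0.0547). Y541S cells differed in Tgfb2 and Inhbb, 2 of 10 against 8.02% of all genes, and the E2 fall of Inhbb was smaller there by 1.88 ± 0.40 (adjusted p = 0.0036). For Bmp3 the Y541S difference was -2.45 ± 0.81 and not called (adjusted p = 0.0591). For E2+P4 the same 3 genes were called in both mutants, Bmp3, Inhbb and Id2, against 4.30% of all genes in D542G and 8.68% in Y541S cells. Bmp3 rose less, by -3.46 ± 0.82 in D542G (adjusted p = 0.0131) and -3.29 ± 0.82 in Y541S cells (adjusted p = 0.0101). Without WT placebo 2 the former was -3.12 (adjusted p = 0.0518). Inhbb fell less, by 1.85 ± 0.40 (adjusted p = 0.00771) and 1.96 ± 0.41 (adjusted p = 0.00213), and Id2 fell in WT cells but not in mutants, a difference of 2.38 ± 0.43 (adjusted p = 0.00149) and 2.35 ± 0.43 (adjusted p = 0.000544). For all 3 genes the mutants began, without hormone, on the side of WT placebo toward which E2+P4 moved WT cells, without a call for Inhbb in D542G cells. For P4, edgeR called 0 of the 10 genes in D542G (3.35% of all genes) and 0 in Y541S cells (7.33%), while 3 and 2 had an unadjusted p under 0.05 and DESeq2 called 1 and 0.

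Adding E2 to P4 in WT cells changed 4 of the 10 genes, against 23.2% of all genes. Bmp3 rose a further 7.39-fold (2.89 ± 0.53, adjusted p = 0.000178) and Inhbb fell 17.3-fold (-4.11 ± 0.31, adjusted p = 1.42e-10). The WT P4 libraries were split for Inhbb as given above, and its fall ran from -4.47 to -3.44 over all alternatives. Id2 fell 3.64-fold (-1.86 ± 0.29, adjusted p = 2.48e-05), and Tgfb2 rose by 1.52 ± 0.50 (adjusted p = 0.0273). The Tgfb2 call was lost without WT E2+P4 1 (1.14, adjusted p = 0.161), without WT P4 2 (adjusted p = 0.0512) and without WT P4 5 (adjusted p = 0.0751). Set against the sum of the single-hormone effects, E2+P4 departed for 2 of the 10 genes, where 11.4% of all genes were called. Inhbb fell by 2.24 ± 0.40 more than the sum (adjusted p = 0.000375). That departure ran from -2.6 to -1.55 over all alternatives, with adjusted p up to 0.0176. It rests on the same split WT P4 group. Inhbb was joined by Tgfb2, which lay 2.64 ± 0.76 below the sum (adjusted p = 0.0213). The latter was lost without WT placebo 3 (adjusted p = 0.066) or WT E2+P4 3 (adjusted p = 0.0754), and without WT placebo 2 and WT P4 2 together (adjusted p = 0.0516). For Bmp3 the departure was -0.42 ± 0.77 (95% interval -2 to 1.17, adjusted p = 0.806), and for Id2 it was -1.10 ± 0.41 (adjusted p = 0.0811).

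Per kilobase of exon, which allows levels of different genes to be set side by side, Id2 (105 ± 23.9 CPM per kb) and Inhbb (74.2 ± 14.7) led in WT placebo (SD, n = 3), and Bmp3 (0.462 ± 0.22) and Tgfb2 (0.80 ± 0.239) were below 1. In WT E2+P4 Bmp3 (31.9 ± 5.89) and Id2 (25.5 ± 9.97) led and Inhbb was at 4.57 ± 1.77 (SD, n = 3). The width in the deposited tables equals the genomic span for 85.6% of genes, so reads in introns may be part of these levels. Over the 12 group means of log2 CPM, Bmp3 and Inhbb had a Pearson correlation of -0.79 and Bmp3 and Id2 one of -0.57, as a description of groups that share genotypes and treatments. Outside the 10 genes, those whose group means lay closest to Bmp3 among 10330 genes were Fam20c (0.953), Nampt (0.931) and Prss8 (0.922). Closest to Inhbb were Ctdsp2 (0.962), Fbxl4 (0.957) and Trim68 (0.953), closest to Tgfb2 were Lhfpl2 (0.98), Wfdc18 (0.978) and Kcnn4 (0.973), and closest to Id2 were Sepsecs (0.942), Lmcd1 (0.941) and Tshz1 (0.917).

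Receptors through which these ligands act were counted beside all genes. Of 18 receptors and coreceptors 16 were tested. In WT cells E2 raised 1 and lowered 4, P4 lowered 1, and E2+P4 raised 1 and lowered 4, which is 31.2%, 6.25% and 31.2% of the 16 beside 31.5%, 1.43% and 23.4% of all genes. Tgfbr2, the type II receptor of TGF-beta, was the most abundant of them and fell from 1030 ± 177 CPM in WT placebo to 199 ± 69.1 with E2 (-2.38 ± 0.22, adjusted p = 1.53e-08) and 229 ± 32.2 with E2+P4 (-2.17 ± 0.22, adjusted p = 2.52e-08; SD, n = 3). It was already at 263 ± 59.5 CPM in Y541S placebo (-1.97 ± 0.22 from WT, adjusted p = 3.48e-07), where no hormone changed it beyond the threshold. Bmpr1b, a type I BMP receptor, rose with E2+P4 in all 3 genotypes: from 2.45 ± 1.62 to 38.6 ± 10.4 CPM in WT (3.98 ± 0.92, adjusted p = 0.00182), from 9.35 ± 5.06 to 68.3 ± 15.9 CPM in D542G (2.87 ± 0.86, adjusted p = 0.0143) and from 5.61 ± 9.03 to 75.9 ± 2.82 CPM in Y541S cells (3.78 ± 0.90, adjusted p = 0.00374; SD, n = 3). The D542G call was lost without D542G placebo 2 (adjusted p = 0.0624) or 3 (adjusted p = 0.0697), and the Y541S rise was 7.57 without Y541S placebo 5. Bmpr1a, the other type I BMP receptor of the pair, fell from 335 ± 32.6 to 158 ± 25.1 CPM with E2 in WT cells (-1.09 ± 0.19, adjusted p = 5.63e-05; SD, n = 3) and by 0.79 to 1.13 in the other called hormone comparisons. Eng, a TGF-beta coreceptor, fell in 7 of the 9 hormone comparisons, most under E2 in WT cells (-3.53 ± 0.49, adjusted p = 3.83e-06). Of the activin receptors, Acvr2a and Acvr2b were called in no comparison and Acvr1b fell with E2 in WT cells (-1.03 ± 0.38, adjusted p = 0.0361). Bmpr2 was never called either, and Tgfbr1 rose with P4 in D542G cells (1.04 ± 0.31, adjusted p = 0.0204). The calls of Acvr1b and Tgfbr1 were each lost with any 1 of 4 libraries left out, with adjusted p up to 0.183 and 0.0927.

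**Figure D5:**
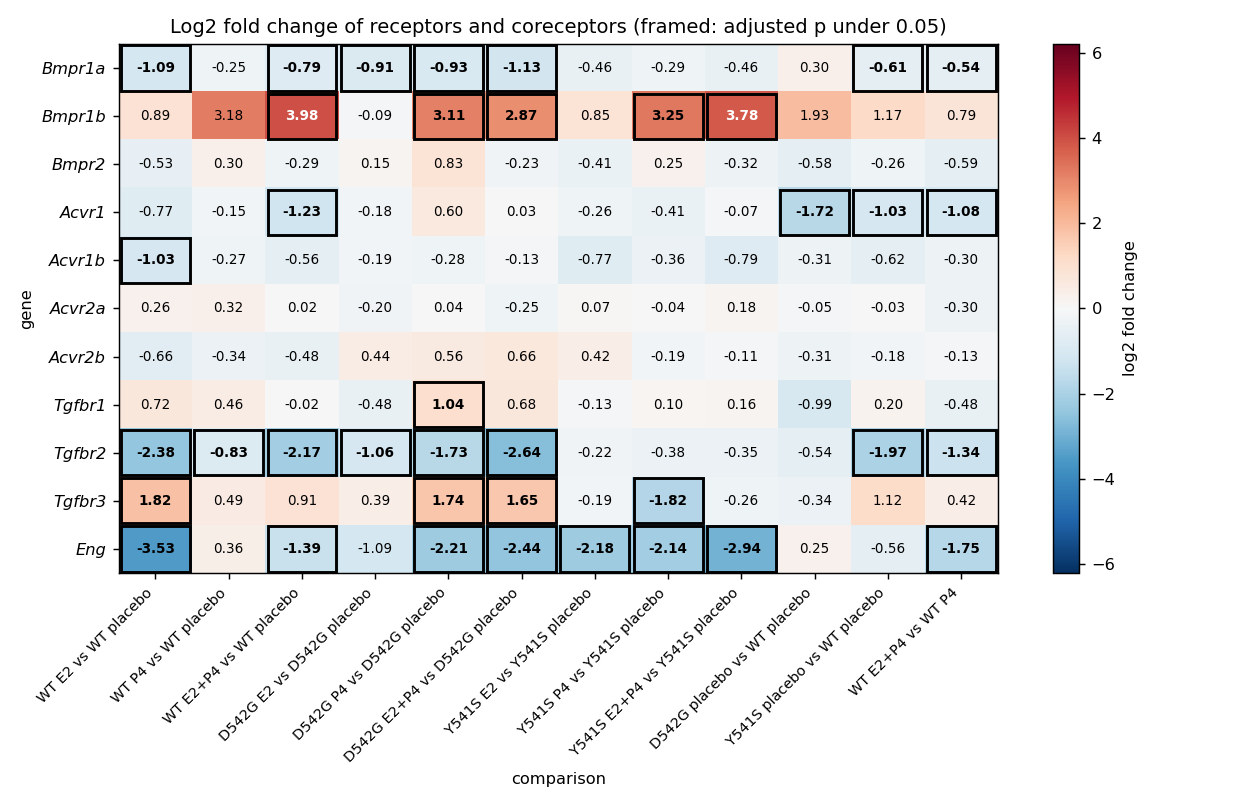
Log2 fold change of 11 receptors and coreceptors (rows) in 12 comparisons (columns), framed where the adjusted p was under 0.05. Bmpr1b is framed as higher under E2+P4 in each genotype, while Bmpr1a, Tgfbr2 and Eng are framed as lower in several columns.

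Other ligands, signal carriers and inhibitors were counted in the same way, beside the same shares of all genes. Of 23 further ligands 13 were tested, and E2 raised 3 and lowered 0 in WT cells, with a median of -0.08. These are 23.1% of the 13, beside 31.5% of all genes, and 1 of the 3 stayed called without WT placebo 2 and WT P4 2. Tgfb3, the most abundant, rose from 130 ± 49.1 to 599 ± 199 CPM (2.21 ± 0.28, adjusted p = 8.48e-07; SD, n = 3), with 27.6% of its span overlapped by Ttll5 and others, and it fell with E2+P4 in Y541S cells (-0.97 ± 0.27, adjusted p = 0.0112). E2+P4 raised 3 of the 13 in WT cells, 6 in D542G and 1 in Y541S cells, where it lowered 2, or 23.1%, 46.2% and 23.1% of the 13 beside 23.4%, 25.4% and 18.5% of all genes. Of the 8 Smads, all tested, E2+P4 in WT cells lowered Smad3 (-0.62 ± 0.15, adjusted p = 0.00238) and the inhibitory Smad6 (-2.33 ± 0.64, adjusted p = 0.00816) and raised none. These are 25% of the 8, beside 23.4% of all genes. The Smad6 call was lost without WT E2+P4 1 or 3 (adjusted p = 0.051 and 0.053). Smad1 rose with E2+P4 in Y541S cells (0.91 ± 0.20, adjusted p = 0.00175), where inhibitory Smad7 fell (-2.06 ± 0.33, adjusted p = 8.82e-05, and -1.24 without Y541S placebo 5). Of 20 other inhibitors 15 were tested. E2+P4 raised 3 and lowered 1 in WT cells, with Nbl1 (3.29 ± 0.54, adjusted p = 3.97e-05) and Chrd (4.21 ± 1.18, adjusted p = 0.00952), both secreted BMP antagonists, among the former, and in Y541S cells it raised 0 and lowered 5 (Chrdl2, Ski, Skil, Smurf1 and Smurf2), in all 26.7% and 33.3% of the 15. Without WT placebo 2 and WT P4 2 the WT calls that stayed were 2 of the 3 and 0 of the 1, and without Y541S placebo 5 the Y541S calls that stayed were 0 of the 5.

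Of 14 other target genes, all tested, E2+P4 in WT cells raised 4 and lowered 4, with a median of -0.36, which is 57.1% of the 14 beside 23.4% of all genes. Without WT placebo 2 and WT P4 2 the calls that stayed were 3 of each 4. Tgif1, a corepressor of Smad2 and Smad3, rose (1.27 ± 0.19, adjusted p = 9.16e-06) and Gata3, a luminal transcription factor, fell (-1.73 ± 0.27, adjusted p = 1.72e-05). Ccn2, a TGF-beta target with 51.4% of its span overlapped by another gene, rose with E2 in WT cells (5.08 ± 1.01, adjusted p = 0.000296). Id3, the most abundant of these targets, was called in none of the 11 comparisons of hormone with placebo and of mutant with WT placebo, with group means of 160 to 596 CPM. Id4, the remaining Id gene and named after its values were seen, fell in Y541S cells under P4 (-3.54 ± 1.1, adjusted p = 0.0351) and E2+P4 (-3.98 ± 1.13, adjusted p = 0.0136). Both calls were lost with single libraries left out, at adjusted p up to 0.13 and 0.0698.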

How the data were processed

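RNA-seq tables of 37 libraries were used. The deposited counts are raw counts per gene made by the authors on GRCm38, per the submitters' processing notes. Which aligner and counter were used, and whether strand was, is not given in the sources used here. Also deposited by the authors, RPKM values and gene widths were not used in any test. Genes passing edgeR's filterByExpr were scaled by TMM (factors 0.77 to 1.17) and fitted in edgeR 4.0.16 (R 4.3.3) with robust quasi-likelihood dispersions, 1 coefficient per group over all 12 groups (residual df 25), and tested in 19 comparisons with Benjamini-Hochberg adjustment. The fit was tested on simulated data for 2 of the 19 comparisons, with independent counts and no library made to stand apart. It therefore says nothing of calls that single libraries decided. Alternatives were RLE size factors, DESeq2 1.42.0, no filter on low counts, only the groups compared, the replicate number as a block, leaving out WT placebo 2 and WT P4 2, leaving out the 3 libraries with later identifiers, and leaving out each library in turn. Those with later identifiers are Y541S placebo 5, WT P4 4 and WT P4 5. They had 25.69, 30.64 and 31.33 M counts, against at least 32.67 M in every other library. The labels do not say why their identifiers are later. The 10 genes, the pathway lists and the marker lists were chosen with earlier results of these data known. Beyond the 10 genes, the text names the genes whose group means are most like a member's, the most abundant gene of each list, 8 receptors and up to 2 called genes per list and comparison with the smallest p. Total counts of 25.69 to 52.24 M per library set the counting precision.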

Additional observations from a re-analysis of the deposited data

Results flagged for a closer look

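WT P4, the group of 4 libraries, was the 1 group large enough to test for a library far from the rest, by the gap to the nearest library over the group's range (critical value 0.829). Of 18 such tests 6 passed, where chance passes about 1 in 20. Most of the 6 fell on 1 library, WT P4 2, and the tests are not independent, so the 2 shares cannot be compared directly. WT P4 2 stood apart for Bmp2 (ratio 0.947, at 12.4 CPM), Bmp4 (0.866, at 14.7 CPM) and Bmp7 (0.959, at 34.2 CPM), and for the summed basal markers (0.995, at 821 CPM) and G2 and M phase genes (0.981, at 253 CPM). WT P4 5 stood apart on the low side for the hormone-sensing markers (0.926, at 5770 CPM). That gap was small in size, as the other WT P4 libraries nearly coincided at 6420, 6400 and 6450 CPM.

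Hormone responses differed in 12 of 70 tests by edgeR's quasi-likelihood test with Benjamini-Hochberg adjustment. The share of all genes called ran from 3.35% to 11.4% over the same comparisons. These share WT libraries, so the tests are not independent. Against WT cells, the E2 response in D542G cells differed for Bmp3 by -3.51 (adjusted p = 0.0057) and for Tgfb2 by -3.5 (adjusted p = 0.00451). The E2+P4 response in D542G cells differed for Bmp3 by -3.46 (adjusted p = 0.0131), for Inhbb by 1.85 (adjusted p = 0.00771) and for Id2 by 2.38 (adjusted p = 0.00149). The Bmp3 calls were lost without WT E2 1 (-2.05, adjusted p = 0.0547) and without WT placebo 2 (-3.12, adjusted p = 0.0518). In Y541S cells the E2 response differed for Inhbb by 1.88 (adjusted p = 0.0036) and for Tgfb2 by -3.12 (adjusted p = 0.0119), the latter lost without Y541S placebo 5 (-1.43, adjusted p = 0.165). The E2+P4 response in Y541S cells differed for Bmp3 by -3.29 (adjusted p = 0.0101), for Inhbb by 1.96 (adjusted p = 0.00213) and for Id2 by 2.35 (adjusted p = 0.000544). In WT cells E2+P4 departed from the sum of the single responses for Inhbb by -2.24 (adjusted p = 0.000375) and for Tgfb2 by -2.64 (adjusted p = 0.0213), the latter lost without WT placebo 3 (-2.46, adjusted p = 0.066) or WT E2+P4 3 (-2.40, adjusted p = 0.0754).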

How the results depend on the processing

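Of 44 calls of the 10 genes, 32 were removed by no alternative and 12 by at least 1, and among 2783 fold changes under alternatives 0 called ones changed direction. DESeq2 called 5 of the 10 genes rather than 3 under E2 in WT cells, 4 rather than 2 under E2+P4 in Y541S cells, and 1 rather than 0 for the difference in P4 response between D542G and WT cells. With only the groups compared in the fit, the count was 1 for P4 in D542G cells (3 in the fit of all groups), 1 for the difference in E2 response in D542G and 1 in Y541S cells (2 each), and 1 for the difference in P4 response in D542G cells (0). Without the libraries with later identifiers it was 1 for E2 in Y541S cells (0), 1 for the P4 difference in D542G (0) and 1 for the E2 difference in Y541S cells (2). Without WT placebo 2 and WT P4 2 it was 0 for P4 in WT cells (1) and 1 for the departure from the sum of single responses (2). Without a filter on low counts it was 1 for P4 in Y541S cells (2). The causes were not tested.

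Leaving out 1 library at a time gave 3 to 5 genes for E2 in WT, 1 to 3 for P4 in D542G, 0 to 1 for E2 and for P4 in Y541S cells, 1 to 2 for the E2 difference in D542G, 1 to 3 for that in Y541S cells, 0 to 1 for the P4 difference in Y541S cells and 1 to 3 for the departure from the sum. Calls over all tested genes moved as well, from 4323 to 5541 for E2 in WT and 1723 to 3295 for P4 in D542G. In Y541S cells they ran from 299 to 1786 for E2 and 1167 to 2191 for P4. For the E2 difference they ran from 1159 to 1873 in D542G and 909 to 1639 in Y541S cells. The P4 difference in Y541S cells had 692 to 1552, and the departure from the sum 1229 to 2394.

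The replicate number was also fitted as a block. Same-numbered libraries deviated together (correlation over 0.1) in 2 of 45 pairs for number 1, 8 of 66 for number 2 (from -0.5 to 0.56), 6 of 66 for number 3 and 1 of 1 for number 5 (0.13). Pairing asked for every pair to pass and was not met, so the main fit held no block. Whether same-numbered libraries share a batch or animals in part was not tested. For 17 of 37 libraries the closest library of another group had the same number. With the block, counts were 0 for P4 in Y541S cells (2), 1 for the P4 difference in D542G (0), 1 for the E2 difference in Y541S (2) and 1 for the departure from the sum (2), and the genes called over all those tested went from 263 to 79 for P4 in WT cells and from 1350 to 349 for the P4 difference in Y541S cells.

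Among the other pathway genes, Ski and Pmepa1 turned direction. In Y541S cells Ski was at 0.19 under P4 without the later libraries and ran from -2.78 to 0.18 with 1 library left out at a time, and Pmepa1 was at 0.1 and ran from -2.39 to 0.1, both highest without Y541S placebo 5. Under E2+P4 Ski was at 0.08 with the replicate block, 0.34 without the later libraries and from -2.62 to 0.34 with 1 library left out, highest without Y541S placebo 5. Its difference in P4 response from WT cells was 0.38 with the block and 0.61 without the later libraries. Depth limits Inhba, which had at most 40 counts in a library.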
